A study of Mus musculus with 12 samples.

Results

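The effect of dietary selenium on lung mRNA was measured on the 6 lung arrays of a series of 12 arrays that also covered liver. Members were chosen by title: 3 arrays of 0.1 Se lung and 3 arrays of 0 Se lung, with 1 array per mouse. Male FVB/N mice, an inbred albino strain, were weaned at 3 weeks of age and fed a Se-deficient torula yeast diet for 6 weeks. Either nothing (0 Se) or 0.1 ppm Se as sodium selenite (0.1 Se) was added to that diet, so both groups ate the same base and differed in the added selenite. Total lung RNA was hybridized to Affymetrix mouse genome arrays, whose probe sets each read the 3′ part of a transcript.

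Selenium enters selenoproteins as selenocysteine, an amino acid placed at UGA codons. Selenoproteins include glutathione peroxidases and thioredoxin reductases, which handle peroxides and thiols, and when selenium is scarce the mRNAs of some of them are lost before those of others. Lung is an airway and alveolar epithelium with a dense vascular bed and resident and circulating immune cells, and interferon-γ from lymphocytes turns on GTPases and antigen presentation in most of these cells.

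Values are log2 of the array signal, so that a difference of 1 is a 2-fold change, and a difference is the 0.1 Se mean less the 0 Se mean, ± its standard error (SE). A blank cell stands for an absent call or a signal under 100. Per array 22197 to 22718 probe sets had a value, and the correlation between pairs of arrays lay between 0.976 and 0.987. The label of the tissue was met by its markers. Surfactant protein C (Sftpc, alveolar type 2 cells) lay between 14.8 and 15.83 on its brighter probe set (the other was listed on 3 arrays, at 6.70 to 7.28), the club cell protein Scgb1a1 between 15.16 and 16.25, and Ager, of alveolar type 1 cells, between 13.16 and 13.73 on its dimmer probe set. Albumin (Alb) was listed on 3 of the 6 arrays, at 6.70 to 7.15, and Apoa1 on none. Arrays of 1 diet were not alike in every cell type. Cardiac muscle genes stood lowest on 0 Se replicate 1 and neutrophil genes highest on 0.1 Se replicate 1. In RNA of bulk lung, fewer cells of a type and less RNA per cell cannot be told apart.

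Of 21655 probe sets with at least 2 values per diet, 20 passed an adjusted p of 0.05 in limma (0.0924%). In 0.1 Se lung, 16 probe sets rose (0.0739%) and 4 fell (0.0185%). Of these, 14 stood for a single gene and named 12 genes: 9 that rose and 3 that fell. The 9 that rose were the immunity-related GTPases Iigp1, Irgm1, Irgm2, Igtp and Ifi47, the guanylate-binding proteins Gbp2 and Gbp7, the checkpoint ligand Cd274 and the class I heavy chain H2-K1. The 3 that fell were Ptgs2, Phlda1 and Fam216b. At an unadjusted p under 0.05, 768 probe sets were higher (3.55%) and 893 lower (4.12%). By gene, each read by its brightest probe set, 3.5% of 10904 were higher and 5.02% lower. The list counts below stand beside these shares. Among 20062 probe sets with a value on every array, the arrays of the diets did not overlap in 1218 with 0.1 Se higher (6.07%) and in 1376 with 0.1 Se lower (6.86%). With 3 arrays per diet the smallest two-sided p of an exact permutation test is 0.1, so the p-values come from limma, which pools the spread over probe sets. The number of calls turned on single arrays: without 0 Se replicate 2, and likewise without 0.1 Se replicate 2, limma called 0 probe sets (1258 and 1538 at an unadjusted p under 0.05), without 0 Se replicate 3 it called 4, and without 0.1 Se replicate 1 it called 75. The direction of the 12 genes was the same in every alternative run.

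The immunity-related GTPases, which interferon-γ induces and which attack the vacuoles of intracellular parasites, had the highest median of the gene lists. Their promoters and those of the called guanylate-binding proteins are shown first, since both families are textbook targets of the factors that bind GAS and ISRE elements. The sequences are RefSeq's for build GRCm38.p6, from 250 bases before the transcript start to 50 after it, 5′ to 3′ along the gene. Capitals mark matches on either strand to GAS (TTCNNNGAA) or ISRE (GAAA, any 2 bases, GAAA). The promoters lie at chr11:48871371-48871670 on the minus strand (Irgm1), and on the plus strand at chr11:58214727-58215026 (Irgm2), chr11:58199306-58199605 (Igtp), chr11:49076337-49076636 (Ifi47), chr3:142620413-142620712 (Gbp2) and chr3:142530086-142530385 (Gbp7).
Irgm1: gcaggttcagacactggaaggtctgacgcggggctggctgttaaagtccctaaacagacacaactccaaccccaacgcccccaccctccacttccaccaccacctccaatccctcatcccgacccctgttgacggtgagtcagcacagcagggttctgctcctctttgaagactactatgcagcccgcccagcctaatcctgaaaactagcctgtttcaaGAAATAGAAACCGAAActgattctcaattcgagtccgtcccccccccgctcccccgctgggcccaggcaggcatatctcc
Irgm2: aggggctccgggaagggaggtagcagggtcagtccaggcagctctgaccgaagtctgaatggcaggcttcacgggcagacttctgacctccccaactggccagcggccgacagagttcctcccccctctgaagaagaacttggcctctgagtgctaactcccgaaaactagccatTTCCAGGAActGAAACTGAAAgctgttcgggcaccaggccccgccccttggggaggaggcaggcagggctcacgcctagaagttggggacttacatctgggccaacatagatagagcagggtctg
Igtp: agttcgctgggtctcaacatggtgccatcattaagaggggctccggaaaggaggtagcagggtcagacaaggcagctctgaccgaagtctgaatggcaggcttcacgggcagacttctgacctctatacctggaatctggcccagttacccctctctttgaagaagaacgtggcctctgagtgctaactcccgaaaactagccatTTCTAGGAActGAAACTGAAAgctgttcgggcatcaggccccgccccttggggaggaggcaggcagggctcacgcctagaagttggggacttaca
Ifi47: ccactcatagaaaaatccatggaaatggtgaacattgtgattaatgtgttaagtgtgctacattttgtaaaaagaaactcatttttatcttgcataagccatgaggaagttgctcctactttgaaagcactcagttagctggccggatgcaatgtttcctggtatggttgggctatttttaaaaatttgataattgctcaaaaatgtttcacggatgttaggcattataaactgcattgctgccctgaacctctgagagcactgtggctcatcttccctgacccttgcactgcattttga
Gbp2: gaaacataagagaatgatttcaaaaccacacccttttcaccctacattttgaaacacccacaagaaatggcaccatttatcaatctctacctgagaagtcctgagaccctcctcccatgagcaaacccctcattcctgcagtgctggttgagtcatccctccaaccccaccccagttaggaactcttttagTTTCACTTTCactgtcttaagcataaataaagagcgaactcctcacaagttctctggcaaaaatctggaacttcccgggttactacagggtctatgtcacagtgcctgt
Gbp7: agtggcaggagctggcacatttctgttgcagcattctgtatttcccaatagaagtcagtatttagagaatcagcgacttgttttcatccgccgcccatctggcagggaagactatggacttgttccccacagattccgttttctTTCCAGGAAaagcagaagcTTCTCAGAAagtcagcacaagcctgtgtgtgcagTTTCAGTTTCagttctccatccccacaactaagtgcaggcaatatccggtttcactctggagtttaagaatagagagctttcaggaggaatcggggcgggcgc

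In Irgm2 and Igtp a GAS match stood next to an ISRE match. Irgm1 held 2 overlapping ISRE matches, Gbp2 held 1 ISRE match, Gbp7 held 2 GAS matches and 1 ISRE match, and Ifi47 held neither in this window. Over all 32851 promoters of the table, 8.3% held a GAS match and 3.44% an ISRE match, and over the promoters of genes tested in lung these shares were 6.78% and 2.96%. Among the 12 called genes, 10 were in the table with 11 promoters, of which 3 held a GAS match (27.3%) and 6 an ISRE match (54.5%). These shares pool genes that rose with Ptgs2 and Fam216b, which fell. The ISRE match outside the promoters shown above was in Fam216b. These matches describe letters and do not show that a factor bound there.

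All 5 immunity-related GTPases tested passed adjustment, of 10 on the list and 5 with a probe set of a single gene. Irgm2 read 10.97, 10.06 and 10.58 on the 0 Se arrays and 12.24, 12.47 and 11.93 on the 0.1 Se arrays. It rose 3.2-fold, by 1.68 ± 0.20 (adjusted p = 0.026). Every 0.1 Se array lay above every 0 Se array, and 0 Se replicate 2 was the lowest. Igtp, known as Irgm3, read 11.20, 10.49 and 10.69 on the 0 Se arrays and 12.69, 12.81 and 12.05 on the 0.1 Se arrays, a rise of 1.73 ± 0.21 (adjusted p = 0.026). Iigp1, the effector GTPase that loads onto parasite vacuoles, read 11.92, 11.43 and 11.27 on the 0 Se arrays and 13.30, 13.48 and 12.99 on the 0.1 Se arrays and rose by 1.72 ± 0.17 (adjusted p = 0.0103). Its second probe set rose by 1.62 ± 0.15 at the same adjusted p. Irgm1, a regulator of the effector GTPases and of autophagy, read 9.89, 9.20 and 9.25 against 11.09, 10.81 and 10.45 and rose by 1.34 ± 0.20 (adjusted p = 0.0471). Ifi47 read 11.48, 10.84 and 10.65 against 12.43, 12.45 and 12.02, a rise of 1.31 ± 0.19 (adjusted p = 0.0471). In all 5 genes the arrays of the diets stood apart, and on the median of the list 0 Se replicate 1 was the highest of its diet and 0.1 Se replicate 3 the lowest. The median of the 5 differences was 1.68, against -0.0172 over all 10904 genes tested. The study's own table of lung genes names these 5 genes and the 5 guanylate-binding proteins tested, so the direction of both lists is not independent evidence.

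**Figure D1:**
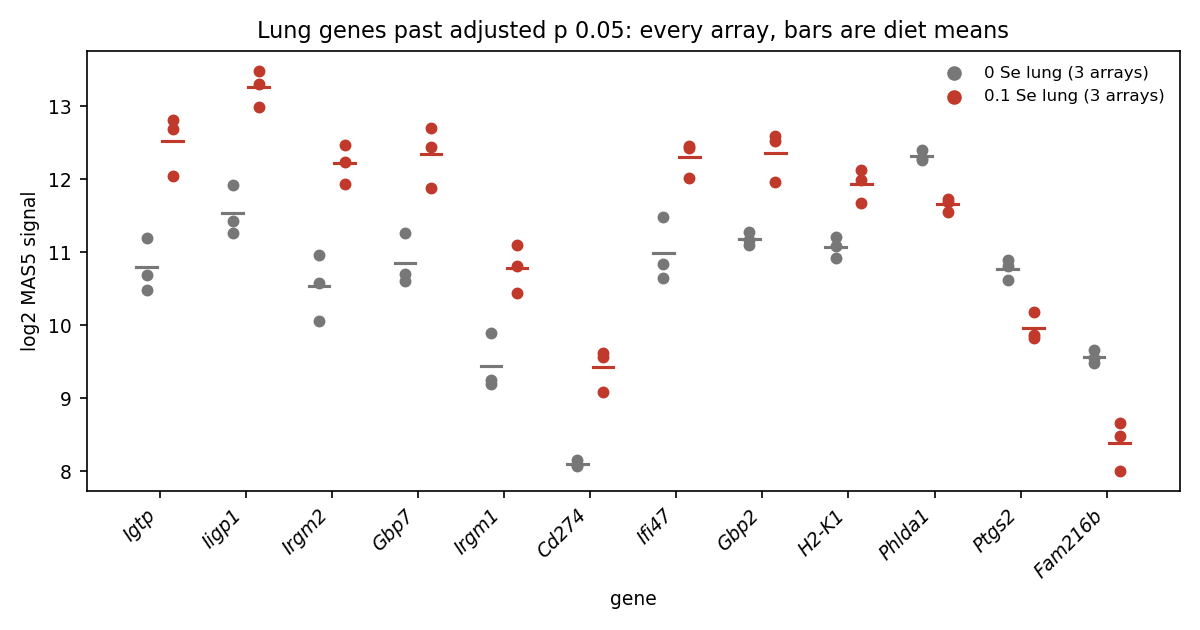
Log2 signal of the 12 called genes on each of the 6 lung arrays (points, by diet) with the mean of each diet (line). The 9 genes that rose and the 3 that fell show no overlap between the 3 arrays of 0 Se and the 3 of 0.1 Se.

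The guanylate-binding proteins, large GTPases of the same defence against intracellular microbes, had 5 of 11 list members tested. Gbp2 read 11.28, 11.16 and 11.10 on the 0 Se arrays and 12.52, 12.59 and 11.96 on the 0.1 Se arrays and rose by 1.17 ± 0.15 (adjusted p = 0.026), and its second probe set, which ends in _x_at and can bind related transcripts, rose by 0.98 ± 0.12 (adjusted p = 0.026). Gbp7 read 11.26, 10.61 and 10.70 on the 0 Se arrays and 12.44, 12.71 and 11.88 on the 0.1 Se arrays and rose by 1.48 ± 0.21 (adjusted p = 0.0443), whereas its brighter probe set differed by 1.29 ± 0.20 and did not pass (adjusted p = 0.0642). Both genes stood apart between the diets. Gbp8 had the largest difference of the family, 1.92 ± 0.34, with 10.77, 9.61 and 9.24 on the 0 Se arrays and 12.13, 11.996 and 11.27 on the 0.1 Se arrays, and did not pass (adjusted p = 0.0911). The 0 Se arrays of Gbp8 were spread over more than 1 log2 unit, with replicate 1 the highest. Gbp6 differed by 1.59 ± 0.25 and 1.62 ± 0.28 on 2 probe sets (adjusted p = 0.0639 and 0.0779), and Gbp3 by 1.29 ± 0.26 (adjusted p = 0.145). All 5 genes stood apart with 0.1 Se higher, and the median was 1.29 over the probe set of the highest signal for each gene.

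Cd274 encodes PD-L1, the ligand of the T cell checkpoint receptor PD-1. It read 8.15, 8.07 and 8.09 on the 0 Se arrays and 9.56, 9.63 and 9.08 on the 0.1 Se arrays and rose 2.5-fold, by 1.32 ± 0.16 (adjusted p = 0.026). Its 0 Se arrays lay within 0.1 log2 units of each other, and the 0.1 Se arrays all lay above them. H2-K1, a classical class I heavy chain that shows peptides to CD8 T cells, read 11.21, 10.93 and 11.08 against 12.12, 11.98 and 11.68 on 1 probe set and rose by 0.86 ± 0.12 (adjusted p = 0.0443). Its other 3 probe sets differed by 0.21 ± 0.13, 0.16 ± 0.13 and 0.77 ± 0.21, with adjusted p between 0.342 and 0.841. All 4 end in _x_at, and class I genes are alike in sequence, so the gene name is less certain. Of the 6 called probe sets with no single gene in the platform annotation, 5 rose and 1 fell. The largest rise among them was 1.80, and the 1 that fell did so by 1.36 on the log2 scale. That rise was 3.494-fold, the value that the study's table of lung genes gives for Tgtp1. Another rose 3.415-fold, as given there for Serpina3g, and the fall was 2.562-fold, as given there for Areg. The annotation used here did not name these genes, so they are in no list count.

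Genes of peptide loading and of class II presentation lay higher in 0.1 Se, and none passed adjustment. In the list of the immunoproteasome and peptide loading, which cuts and carries peptides for class I molecules, 8 of 12 genes were higher at an unadjusted p under 0.05 and none lower, and in 8 the arrays stood apart (median 0.30). Psmb9, an immunoproteasome subunit, read 11.16, 10.86 and 10.69 on the 0 Se arrays and 11.89, 11.73 and 11.46 on the 0.1 Se arrays, a difference of 0.79 ± 0.14 (adjusted p = 0.0903). Tap1, a subunit of the peptide transporter into the endoplasmic reticulum, read 9.17, 8.51 and 8.73 on the 0 Se arrays and 9.90, 9.87 and 9.50 on the 0.1 Se arrays, a difference of 0.95 ± 0.18 (adjusted p = 0.118). Psmb8 differed by 0.62 ± 0.14 (adjusted p = 0.218). In these 3 genes every 0.1 Se array lay above the highest 0 Se array. H2-M3, a nonclassical class I molecule that shows bacterial formyl peptides and the 1 of 5 heavy chains higher at that threshold, read 10.34, 10.59 and 10.45 on the 0 Se arrays and 11.41, 11.07 and 11.07 on the 0.1 Se arrays, a difference of 0.72 ± 0.11 (adjusted p = 0.0642). Nlrc5, the transactivator of class I genes, differed by 1.00 ± 0.16 (adjusted p = 0.0747), with 9.58, 9.00 and 9.43 on the 0 Se arrays and 10.30, 10.58 and 10.12 on the 0.1 Se arrays. Both genes stood apart.

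Of 11 class II presentation genes, 7 were higher at an unadjusted p under 0.05, 0 were lower and 0 passed adjustment, with a median of 0.29. Ciita, the class II transactivator, read 8.34, 7.13 and 8.02 on the 0 Se arrays and 9.12, 9.18 and 8.79 on the 0.1 Se arrays, a difference of 1.20 ± 0.27 (adjusted p = 0.218), and its second probe set differed by 0.96 ± 0.16 (adjusted p = 0.0774). The diets stood apart in Ciita, and the spread among the 0 Se arrays was over 1 log2 unit. Cd74, the invariant chain, read 11.97, 11.45 and 11.56 on the 0 Se arrays and 12.64, 11.89 and 12.25 on the 0.1 Se arrays, a difference of 0.60 ± 0.18 (adjusted p = 0.41), and its arrays overlapped because 0 Se replicate 1 lay above 0.1 Se replicate 2. The peptide exchange subunit H2-DMa differed by 0.46 ± 0.12, the protease Ctss by 0.51 ± 0.14 and H2-Ab1 by 0.29 ± 0.09 on its brightest probe set, with adjusted p between 0.306 and 0.439, and these 3 genes stood apart. The other 2 probe sets of H2-Ab1 differed by 0.62 and 0.48.

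Among 12 interferon-γ signalling genes, the receptor, kinases and factors upstream of these targets, 4 were higher at an unadjusted p under 0.05 and 0 lower (median 0.18). They were Ciita and Nlrc5, given above, Irf9, a subunit of the ISRE-binding complex, with 0.57 ± 0.12 (adjusted p = 0.204), and Irf1. Irf1, a factor that interferon-γ induces, read 11.89, 11.80 and 11.69 on the 0 Se arrays and 12.13, 12.43 and 12.09 on the 0.1 Se arrays, a difference of 0.42 ± 0.11 (adjusted p = 0.301), with the diets apart. Among 20 type I interferon-stimulated genes tested of 30 on the list, 12 were higher at that threshold and 0 lower, 8 of 19 with every value stood apart, and the median was 0.39. The largest was Herc6, an E3 ligase for ISG15, with 9.22, 8.90 and 9.06 on the 0 Se arrays and 9.82, 9.97 and 9.57 on the 0.1 Se arrays and a difference of 0.73 ± 0.14 (adjusted p = 0.118). Its other 3 probe sets differed by 0.62, 0.59 and 0.29. Oasl2, Ifit3 and Parp9 differed by 0.65 ± 0.17, 0.53 ± 0.12 and 0.34 ± 0.09, with adjusted p between 0.204 and 0.307. No gene of the type I list passed adjustment, and its differences ran from -0.09 to 0.73.

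**Figure D2:**
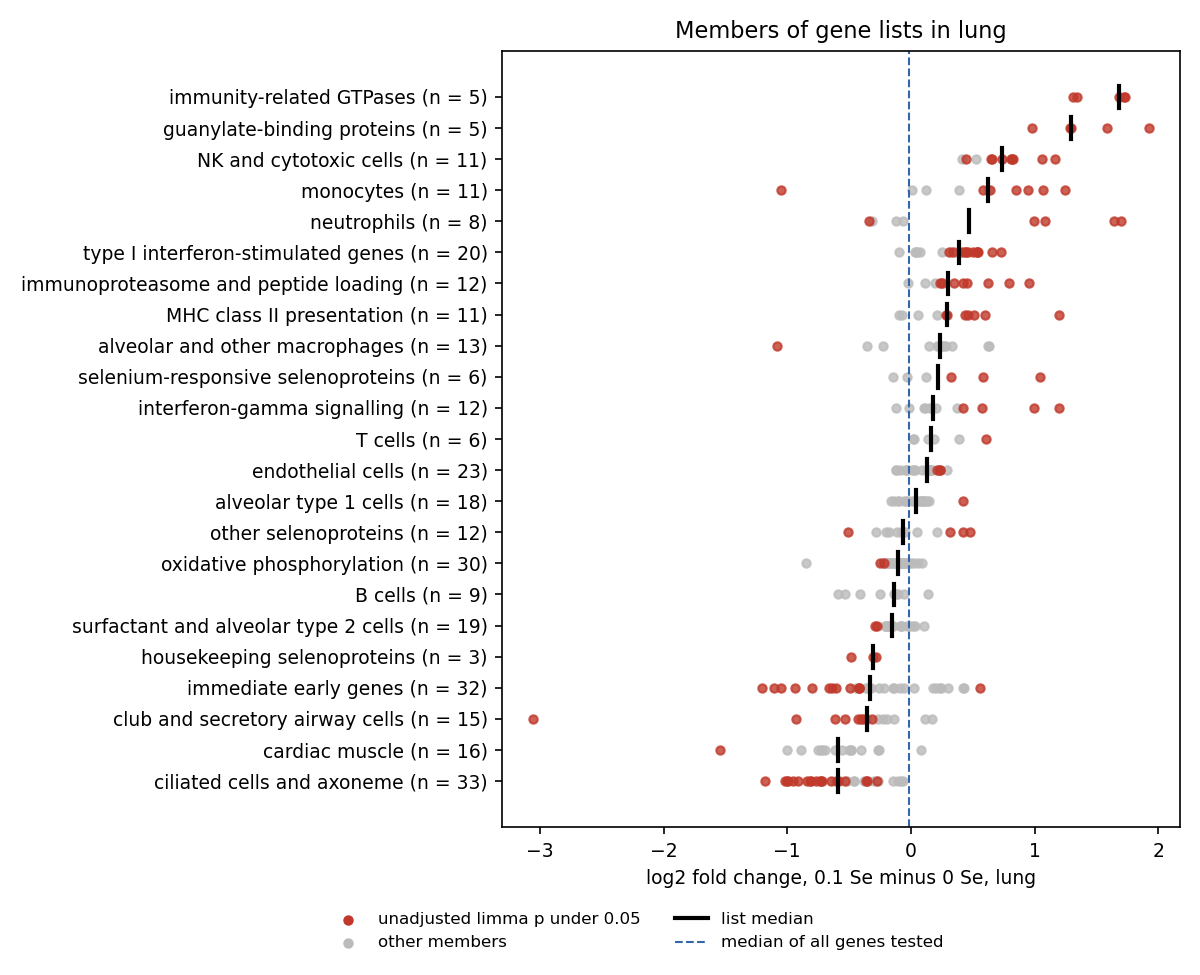
Log2 fold change (0.1 Se minus 0 Se) of each tested member of 23 gene lists in lung, 1 point per gene, red where the unadjusted limma p is under 0.05, with the median of each list (black bar) and of all genes tested (dashed line). Immunity-related GTPases lie at the upper end with a median of 1.68 and ciliated cell genes at the lower end with a median of -0.59.

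NK and cytotoxic cell genes differed upward as a list, with 9 of 11 tested genes higher at an unadjusted p under 0.05, 0 lower and 8 apart, and a median of 0.74. None passed adjustment, and without the 1 gene that the study's table names 8 of 10 were higher. Gzma, a granule protease of these cells, read 10.50, 10.53 and 9.94 on the 0 Se arrays and 11.80, 11.34 and 11.00 on the 0.1 Se arrays, a difference of 1.06 ± 0.20 (adjusted p = 0.121). Gzmb, the protease that starts apoptosis in target cells, read 8.11, 8.26 and 7.31 on the 0 Se arrays and 9.50, 9.04 and 8.63 on the 0.1 Se arrays, a difference of 1.16 ± 0.27 (adjusted p = 0.242). Within each diet the order of the arrays was uneven: 0.1 Se replicate 1 was the highest and 0 Se replicate 3 the lowest in both genes. On the list median, relative to the mean of 0 Se, the 0 Se arrays lay at 0.18, 0.26 and -0.39 and the 0.1 Se arrays at 1.07, 0.66 and 0.42. The neutrophil list had the same order of arrays within each diet, with 0.25, 0.31 and -0.38 in 0 Se and 1.12, 0.46 and 0.14 in 0.1 Se, and its part in the NK values was not tested. Tbx21, the T-bet factor, differed by 0.74 ± 0.21 and Nkg7, a granule membrane protein, by 0.83 ± 0.24, with adjusted p of 0.38 and 0.388. Without 0.1 Se replicate 1 the count was 5 of 11 and the median 0.52. Of the other lymphocyte lists, 1 of 6 T cell genes was higher and 0 lower (median 0.16), and 0 of 9 B cell genes lay past an unadjusted p of 0.05 (median -0.14). The T cell count was 0 without 0 Se replicate 1 or 0.1 Se replicate 1, and 3 B cell genes were lower without 0 Se replicate 3.

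Of 11 monocyte genes, 6 were higher at an unadjusted p under 0.05 and 1, Nr4a1, lower (median 0.62). The study's table names 2 of them, and without these 4 of 9 were higher. Ccr2, the chemokine receptor of inflammatory monocytes, read 8.24, 8.35 and 8.14 on the 0 Se arrays and 8.84, 9.69 and 9.04 on the 0.1 Se arrays, a difference of 0.95 ± 0.20 (adjusted p = 0.204), with 0.1 Se replicate 2 the highest, and its other 2 probe sets differed by 0.95 and 0.53. Ms4a4c read 8.70, 8.36 and 7.75 on the 0 Se arrays and 10.07, 9.39 and 9.08 on the 0.1 Se arrays on its brightest probe set, which ends in _x_at, a difference of 1.25 ± 0.28 (adjusted p = 0.218), with 0.1 Se replicate 1 the highest, and 1.51 on its second probe set. Plac8 differed by 0.85 ± 0.24 (adjusted p = 0.372). On the list median, relative to the mean of 0 Se, the monocyte genes lay at 0.07, 0.02 and -0.11 in 0 Se and at 1.002, 0.64 and 0.29 in 0.1 Se, so that the highest and the lowest array were those of the neutrophil list given above. The part of neutrophil RNA in the monocyte values was not tested. The monocyte count was 4 without 0.1 Se replicate 1 and 3 of 10 without 0 Se replicate 3. Among 13 macrophage genes, 0 were higher and 1 was lower, with a median of 0.23, and without 0.1 Se replicate 2 the count of higher genes was 8, while that of lower genes ran from 0 to 2 with 1 array left out.

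Neutrophil genes were uneven among the arrays of a diet. S100a9, a subunit of calprotectin, read 9.92, 9.87 and 8.79 on the 0 Se arrays and 12.59, 10.65 and 10.42 on the 0.1 Se arrays, a difference of 1.70 ± 0.49 (adjusted p = 0.389). S100a8, its partner, read 10.82, 10.83 and 9.21 on the 0 Se arrays and 13.27, 11.15 and 11.35 on the 0.1 Se arrays, a difference of 1.64 ± 0.54 (adjusted p = 0.459). In both genes 0.1 Se replicate 1 lay well above the other 5 arrays and 0 Se replicate 3 well below them, and Csf3r, the receptor of the growth factor G-CSF, differed by 1.08 ± 0.33 with its highest value on the same 0.1 Se array. The list medians of the arrays ran up to 1.12 above the 0 Se mean, on that array. Of 8 genes, 4 were higher at an unadjusted p under 0.05 and 1, G0s2 (-0.34 ± 0.11), was lower, while 4 of the 8 lay below 0, with a median of 0.47. Without 0.1 Se replicate 1, 3 of 7 were higher, without 0 Se replicate 3, 2 of 8, and without 0.1 Se replicate 3, 4 of 7 with a median of 1.35.

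**Figure D3:**
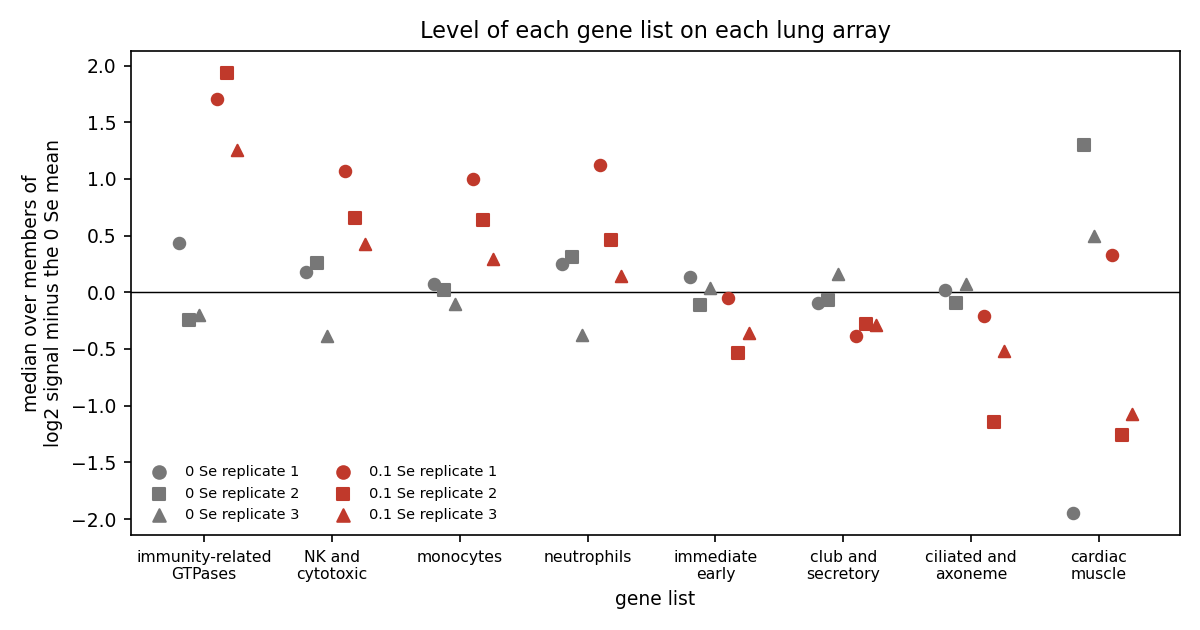
Median over the members of a list of each array's log2 signal minus the mean of the 0 Se arrays, for each of the 6 lung arrays. The immunity-related GTPases lie between -0.25 and 0.43 in 0 Se and between 1.26 and 1.94 in 0.1 Se, while cardiac muscle genes spread from -1.95 to 1.30 within 0 Se alone.

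No selenoprotein mRNA passed adjustment in lung. Of 6 selenoproteins whose mRNA is known to depend on selenium, 3 were higher at an unadjusted p under 0.05 and stood apart (median 0.22). Selenow, a small thioredoxin-like protein of muscle and other tissues, read 10.96, 10.71 and 11.50 on the 0 Se arrays and 11.90, 12.20 and 12.19 on the 0.1 Se arrays on a probe set ending in _x_at, a difference of 1.04 ± 0.17 (adjusted p = 0.0777), and its second probe set differed by 0.59 ± 0.18 (adjusted p = 0.403). Selenoh, a nucleolar selenoprotein, read 9.66, 9.25 and 9.33 on the 0 Se arrays and 9.86, 9.997 and 10.13 on the 0.1 Se arrays, a difference of 0.58 ± 0.13 (adjusted p = 0.218). Gpx1, the cytosolic glutathione peroxidase, read 13.01, 12.88 and 13.26 on the 0 Se arrays and 13.26, 13.54 and 13.32 on the 0.1 Se arrays, a difference of 0.32 ± 0.12 (adjusted p = 0.536), and its arrays were barely apart, at 13.26 for both the highest 0 Se and the lowest 0.1 Se array to 2 decimals. The other members of that list had overlapping arrays or a blank: Selenok of the endoplasmic reticulum (0.12 ± 0.10, and -0.02 on a second probe set), mitochondrial Txnrd2 (-0.14 ± 0.19) and Selenop, the selenium carrier of plasma (-0.03 ± 0.18).

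The 3 housekeeping selenoproteins, whose mRNA is known to be kept when selenium is short, all had lower values in 0.1 Se, with arrays that did not overlap on the brightest probe set. Sephs2, which makes the selenium donor for selenocysteine, read 9.77, 9.90 and 9.83 on the 0 Se arrays and 9.26, 9.41 and 9.38 on the 0.1 Se arrays, a difference of -0.48 ± 0.10 (adjusted p = 0.204), and its other 2 probe sets differed by -0.38 and -0.27. Txnrd1, the cytosolic thioredoxin reductase, read 10.77, 10.64 and 10.68 on the 0 Se arrays and 10.48, 10.23 and 10.44 on the 0.1 Se arrays, a difference of -0.31 ± 0.10 (adjusted p = 0.439). Gpx4, which reduces lipid peroxides in membranes, read 13.02, 13.28 and 13.28 on the 0 Se arrays and 12.93, 12.80 and 13.01 on the 0.1 Se arrays, a difference of -0.28 ± 0.10 (adjusted p = 0.538), and its second probe set by -0.16. The 3 differences lay past an unadjusted p of 0.05 and none passed adjustment, and leaving out 1 array left 2 or 3 of them past the unadjusted threshold.

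Of the other 12 selenoproteins tested, 3 were higher and 1 lower at an unadjusted p under 0.05. Without 0 Se replicate 3, 1 was higher, and the lower gene was lost without 0 Se replicate 1 or 3 or 0.1 Se replicate 2 or 3. Gpx3, the secreted glutathione peroxidase, read 11.88, 11.82 and 12.27 on the 0 Se arrays and 12.13, 12.77 and 12.49 on the 0.1 Se arrays, a difference of 0.47 ± 0.16 (adjusted p = 0.49), with overlap. Msrb1, a methionine sulfoxide reductase, differed by 0.42 ± 0.18 and Selenom by 0.31 ± 0.12, both with arrays apart, and Gpx2, the glutathione peroxidase of epithelia, by -0.51 ± 0.20 with overlap. The remaining 8 lay closer to 0: Selenon 0.21, Selenot 0.05, Selenof -0.05, Selenoi -0.08, Selenos -0.11, Txnrd3 -0.18, Selenoo -0.20 and Dio2 -0.28. Other probe sets of Selenot, Selenoi and Selenos reached 0.29, 0.19 and 0.11. Among 10 genes of selenocysteine synthesis and selenium uptake, 2 were lower: Secisbp2, the protein that binds selenoprotein mRNAs at their selenocysteine signal, with -0.29 ± 0.13, and Sephs1 with -0.25 ± 0.11, both with arrays apart and an adjusted p of 0.64. The count was 0 or 1 when any 1 array was left out. Other probe sets of these genes gave 0.00 for Secisbp2 and 0.16, 0.14 and -0.10 for Sephs1.

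**Figure D4:**
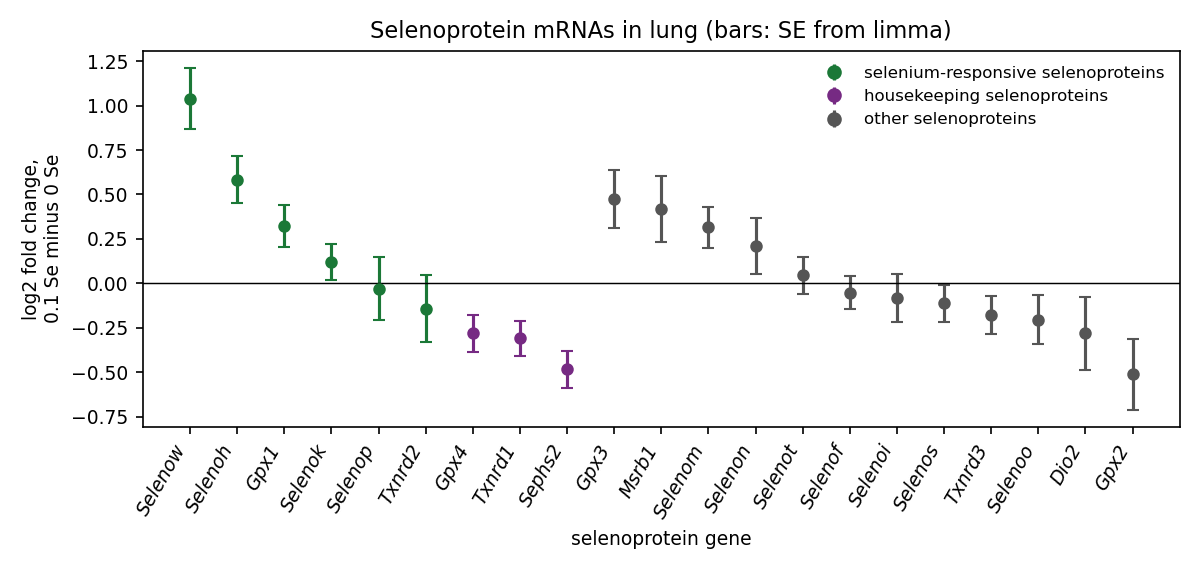
Log2 fold change (0.1 Se minus 0 Se) of each selenoprotein tested in lung with its standard error. Genes are grouped as selenium-responsive, housekeeping and other, and ordered by size within each group. Selenow lies highest at 1.04 ± 0.17 and Gpx2 and Sephs2 lowest at -0.51 and -0.48.

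Ciliated cell genes had the lowest median of the epithelial lists with more than 1 gene. Motile cilia clear mucus from the airways, and their axoneme genes are known to be driven by Foxj1 and by RFX factors, which bind X-box sites. Promoters with the X-box motif GTTGCC, in capitals on either strand, are shown for a pair of ciliated genes whose arrays stood apart. They lie on the minus strand at chr12:33092826-33093125 (Cdhr3) and chr6:124779678-124779977 (Lrrc23), and Lrrc23 was chosen for its promoter after its values were seen.
Cdhr3: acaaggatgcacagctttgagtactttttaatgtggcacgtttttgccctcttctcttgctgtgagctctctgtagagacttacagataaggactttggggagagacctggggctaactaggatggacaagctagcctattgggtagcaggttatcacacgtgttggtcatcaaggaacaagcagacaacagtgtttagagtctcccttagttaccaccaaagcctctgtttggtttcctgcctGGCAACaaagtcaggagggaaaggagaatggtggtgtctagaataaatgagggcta
Lrrc23: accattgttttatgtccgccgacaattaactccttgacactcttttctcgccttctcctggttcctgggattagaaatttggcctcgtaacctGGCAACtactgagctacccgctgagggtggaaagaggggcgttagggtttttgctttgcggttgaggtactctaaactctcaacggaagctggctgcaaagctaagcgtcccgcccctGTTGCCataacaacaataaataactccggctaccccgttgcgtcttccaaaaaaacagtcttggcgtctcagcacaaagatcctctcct

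Of the 33 ciliated genes tested, 28 were in the table of promoters with 35 promoters, and 13 of these held the motif (37.1%), against 12.5% of all promoters and 12.8% of those of genes tested in lung. All 33 ciliated genes lay below 0, out of 49 on the list and 42 with a probe set of a single gene. At an unadjusted p under 0.05, 20 of 33 were lower (60.6%, against 5.02% of all genes tested) and 0 higher, 14 of the 25 with every value stood apart, and the median was -0.59. The study's table names 5 of them, and without these 15 of 28 were lower, with a median of -0.53. This list, like the others, was chosen with earlier results of these data known, so its share is not independent evidence.

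Fam216b, a gene of ciliated cells whose function is not established, passed adjustment. It read 9.56, 9.48 and 9.66 on the 0 Se arrays and 8.67, 8.004 and 8.48 on the 0.1 Se arrays and fell by 1.18 ± 0.17 on the log2 scale (adjusted p = 0.0443). Akap14, a kinase anchor of the axoneme, read 8.30, 8.20 and 8.22 on the 0 Se arrays and 7.48, 7.05 and 7.34 on the 0.1 Se arrays, a difference of -0.95 ± 0.16 (adjusted p = 0.0818). Both genes stood apart, with 0.1 Se replicate 2 the lowest array. Dnali1, a light intermediate chain of the inner dynein arm, read 8.06, 7.98 and 8.49 on the 0 Se arrays and 7.62, 7.10 and 7.06 on the 0.1 Se arrays, a difference of -0.92 ± 0.21 (adjusted p = 0.218), and -0.88 on its second probe set. Cdhr3, a cadherin of ciliated cells that serves as receptor of rhinovirus C, read 8.77, 8.45 and 8.72 on the 0 Se arrays and 8.30, 7.30 and 7.28 on the 0.1 Se arrays, a difference of -1.02 ± 0.26 (adjusted p = 0.301). Lrrc23, of the radial spoke, read 9.29, 9.42 and 9.46 on the 0 Se arrays and 8.87, 7.999 and 8.87 on the 0.1 Se arrays, a difference of -0.81 ± 0.22 (adjusted p = 0.329). In these 3 genes the diets stood apart and 0.1 Se replicate 1 lay nearest to the 0 Se arrays, alone or tied with replicate 3. The assembly factor Ccdc40 differed by -0.84 ± 0.18, with 1 of the 0.1 Se arrays blank, and the radial spoke gene Rsph1 by -0.81 ± 0.21. Foxj1 itself read 8.71, 8.54 and 9.45 on the 0 Se arrays and 8.55, 7.54 and 7.62 on the 0.1 Se arrays, with overlap (adjusted p = 0.403). Cdhr4, a cadherin outside the list, read 9.52, 9.49 and 9.54 on the 0 Se arrays and 8.93, 7.75 and 8.23 on the 0.1 Se arrays, a difference of -1.21 ± 0.24 (adjusted p = 0.147), and its second probe set differed by -0.68.

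The size of the ciliated difference was uneven among the 0.1 Se mice. On the median of the list, relative to the mean of 0 Se, the 0 Se arrays lay at 0.02, -0.10 and 0.08 and the 0.1 Se arrays at -0.21, -1.14 and -0.52. No 0.1 Se array reached the lowest 0 Se array, and 0.1 Se replicate 2 lay farthest away. Cardiac muscle genes ran in the same order on the 0.1 Se arrays, at 0.33, -1.26 and -1.07, but not on the 0 Se arrays, at -1.95, 1.30 and 0.49, and their part in the ciliated values was not tested. Without that array the median was -0.32 and 12 of 32 genes were lower. Without 0.1 Se replicate 1 the median was -0.84 and 24 of 25 were lower, and 5 ciliated genes passed adjustment.

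Secretory airway genes lay in the same direction. Of 15 tested, 8 were lower at an unadjusted p under 0.05, 0 higher and 5 apart, with a median of -0.35. The count was 5 of 15 without 0 Se replicate 3 and 5 of 13 without 0.1 Se replicate 3. Scgb3a1, a secretoglobin of the upper airways, read 12.18, 13.22 and 12.91 on the 0 Se arrays and 12.05, 6.74 and 10.36 on the 0.1 Se arrays, a difference of -3.06 ± 0.99 (adjusted p = 0.456). Its 0.1 Se arrays ran from near the 0 Se level to near the lowest value of the table, and without 0.1 Se replicate 2 the difference was -1.57. Scgb3a2, a secretoglobin of club cells, read 15.08, 15.25 and 15.50 on the 0 Se arrays and 14.65, 14.99 and 14.91 on the 0.1 Se arrays, a difference of -0.43 ± 0.15 (adjusted p = 0.519). Cyp2f2, the club cell cytochrome, read 14.97, 14.97 and 15.33 on the 0 Se arrays and 14.51, 14.83 and 14.72 on the 0.1 Se arrays, a difference of -0.41 ± 0.15 (adjusted p = 0.526), and Lypd2 differed by -0.61 ± 0.13 with 1 of the 0.1 Se arrays blank. Both Scgb3a2 and Cyp2f2 stood apart by narrow gaps. Pigr, which carries IgA across the epithelium, read 10.65, 10.10 and 10.39 on the 0 Se arrays and 9.81, 8.34 and 9.54 on the 0.1 Se arrays, a difference of -1.15 ± 0.31 (adjusted p = 0.337), and -0.98 on its second probe set. Alveolar lists held few such genes: 2 of 19 type 2 genes were lower and 0 higher (median -0.15; 5 lower without 0.1 Se replicate 2 and 1 without 0 Se replicate 1 or 2 or 0.1 Se replicate 3), and 1 of 18 type 1 genes was higher and 0 lower (median 0.04), with 0 higher without 0.1 Se replicate 2. Anxa8, the single basal and squamous gene tested, differed by -0.84 ± 0.21 (adjusted p = 0.306), and by -0.41 on a second probe set.

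Ptgs2 encodes cyclooxygenase-2, the inducible enzyme of prostaglandin synthesis. It read 10.62, 10.81 and 10.89 on the 0 Se arrays and 10.18, 9.86 and 9.83 on the 0.1 Se arrays and fell by 0.82 ± 0.12 on the log2 scale (adjusted p = 0.0443). Phlda1, an early response gene that growth factor signalling through ERK induces, read 12.29, 12.26 and 12.40 on the 0 Se arrays and 11.55, 11.73 and 11.68 on the 0.1 Se arrays and fell by 0.66 ± 0.09 on the log2 scale (adjusted p = 0.034). In both genes the lowest 0 Se array lay above the highest 0.1 Se array. The other eicosanoid enzymes held 0 further genes past adjustment of 17 tested, and the list median was 0.00. Of 17 EGF receptor ligands and ERK feedback genes tested, Phlda1 was again the call. Of these 17, 2 were lower and 1 higher at an unadjusted p under 0.05. Those counts were 2 or 3 lower and 0 to 2 higher when 1 array was left out. The ligand Areg is on that list but had no probe set of a single gene and is not among the 17. The study's table gives it the 2.562-fold fall of the called probe set without a gene name.

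Immediate early genes, transcribed within minutes of a stimulus, were lower in part. Of 32 tested, 12 were lower at an unadjusted p under 0.05, 1 was higher and 5 of 28 with every value stood apart, with a median of -0.33. Nr4a2, an orphan nuclear receptor, read 9.25, 9.39 and 9.29 on the 0 Se arrays and 8.67, 8.11 and 8.35 on the 0.1 Se arrays, a difference of -0.93 ± 0.16 (adjusted p = 0.0779), and its other 3 probe sets lay between -0.81 and -0.65. Nr4a1 read 11.17, 10.14 and 9.93 on the 0 Se arrays and 9.61, 9.37 and 9.11 on the 0.1 Se arrays, a difference of -1.05 ± 0.27 (adjusted p = 0.308). Both stood apart, whereas Fos and Egr1, the classical members, overlapped through 0 Se replicate 2 and 0.1 Se replicate 1. Fos read 13.57, 12.41 and 13.44 on the 0 Se arrays and 12.83, 11.35 and 11.62 on the 0.1 Se arrays, a difference of -1.21 ± 0.37 (adjusted p = 0.425). Egr1 read 13.15, 12.17 and 13.02 on the 0 Se arrays and 12.31, 11.38 and 11.32 on the 0.1 Se arrays, a difference of -1.11 ± 0.29 (adjusted p = 0.308). The factors Klf2 and Jund and the phosphatase Dusp1 differed by -0.49 ± 0.13, -0.42 ± 0.12 and -0.64 ± 0.18, with arrays apart and adjusted p between 0.328 and 0.38. The count of lower genes was 17 of 28 without 0.1 Se replicate 1, and 7 without 0 Se replicate 3, 0.1 Se replicate 2 or 0.1 Se replicate 3.

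Cardiac muscle genes varied more among arrays of 1 diet than between the diets. On the list median, relative to the mean of 0 Se, the 0 Se arrays lay at -1.95, 1.30 and 0.49 and the 0.1 Se arrays at 0.33, -1.26 and -1.07. Of 16 genes tested, 15 lay below 0 and 1, Myoz2, a sarcomere protein, was lower at an unadjusted p under 0.05. Myoz2 read 9.81 and 9.37 (1 array blank) on the 0 Se arrays and 8.93, 7.64 and 7.58 on the 0.1 Se arrays. Its difference was -1.54 ± 0.36. Pln, counted here by its brighter probe set, was not past that threshold there. On another probe set, blank on 0 Se replicate 1, Pln read 9.91 and 9.22 on the 0 Se arrays. Its 0.1 Se arrays read 8.46, 7.30 and 7.59 there, a difference of -1.79 ± 0.33 (adjusted p = 0.124). Actc1, cardiac actin, read 10.96, 12.95 and 12.18 on the 0 Se arrays and 12.24, 10.30 and 10.89 on the 0.1 Se arrays, a difference of -0.89 ± 0.51 (adjusted p = 0.761). Tnni3, the cardiac troponin I, read 7.86, 11.18 and 10.52 on the 0 Se arrays and 10.24, 8.36 and 8.71 on the 0.1 Se arrays, with 0 Se replicate 1 the lowest of the 6 arrays. Without that array 11 of 16 cardiac genes were lower and the median was -1.46, and without 0 Se replicate 2 it was 0.05. The part of cardiac muscle RNA in the other results was not tested.

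Hormone, clock and stress lists held genes in either direction. Among glucocorticoid targets, 2 of 15 were higher and 2 lower. Zbtb16, a target of the glucocorticoid receptor, read 9.64, 9.24 and 10.33 on the 0 Se arrays and 10.37, 11.79 and 11.94 on the 0.1 Se arrays, a difference of 1.63 ± 0.37 (adjusted p = 0.227), and 1.22 and 1.20 on its other probe sets. Fkbp5, a chaperone of that receptor, read 8.86, 8.78 and 9.66 on the 0 Se arrays and 9.95, 9.74 and 10.26 on the 0.1 Se arrays, a difference of 0.89 ± 0.22 (adjusted p = 0.298). Both stood apart by narrow gaps, with 0 Se replicate 3 the highest of its diet, and 2 of 15 clock genes, Dbp (0.67 ± 0.15) and Nr1d1 (0.65 ± 0.21), were higher. Without 0 Se replicate 3, 6 glucocorticoid targets were higher and 1 lower, 4 were lower without 0 Se replicate 1 or 0.1 Se replicate 1, 1 was lower without 0.1 Se replicate 2 or 3, and the clock count ran from 1 to 3 with 1 array left out. In the erythroid list 3 of 6 were higher: Alas2, the first enzyme of heme synthesis in red cells, with 0.65 ± 0.12 (adjusted p = 0.111), Fech with 0.46 ± 0.10 and Bpgm with 0.25 ± 0.09, all apart. Another probe set of Fech gave 0.00. In the unfolded protein response 4 of 19 were higher, led by Sdf2l1, a cofactor of endoplasmic reticulum chaperones, with 9.35, 9.45 and 9.71 on the 0 Se arrays and 10.23, 10.18 and 10.13 on the 0.1 Se arrays and a difference of 0.68 ± 0.12 (adjusted p = 0.0779), and the secreted factor Manf differed by 0.42 ± 0.13. That count was 8 without 0.1 Se replicate 1, 6 without 0 Se replicate 3 and 2 without any of the other 4 arrays.

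Redox lists outside the selenoproteins held no call. Of 27 NRF2 targets and glutathione enzymes, 5 were lower and 1 higher (median -0.15), with Gclc, the limiting enzyme of glutathione synthesis, at -0.30 ± 0.09 and arrays apart. Of 12 peroxiredoxins, superoxide dismutases and catalase, 0 lay past the unadjusted threshold. Mt1, a metallothionein, differed by -0.85 ± 0.30 with overlap. Of 28 collagen and matrix genes 7 were lower, among them elastin (Eln, -0.51 ± 0.16). Of 19 acute phase and interleukin-6 targets 2 were lower, Cp (-0.46 ± 0.11) and Hp (-0.39 ± 0.12), and 0 higher. Without genes that are also on another list, 0 of 14 lay past the threshold. Of 34 members on this list 15 were not tested. Serpina3g is 1 of these, and the study's table gives it the fold of a called rise without a gene name. Of 9 genes kept as references for array quality, 0 lay past the threshold and the median was -0.03. These counts turned on single arrays. The 5 lower NRF2 targets became 2 without 0 Se replicate 1 or 3 and 3 without 0 Se replicate 2 or 0.1 Se replicate 2. The 7 collagen and matrix genes became 3 without 0.1 Se replicate 3 and 4 without 0 Se replicate 2, and the 2 acute phase genes became 4 without 0.1 Se replicate 1. In 23 endothelial genes 3 were higher (13%, median 0.13) and in 20 cell cycle genes 3 were higher (15%, median 0.20). In 30 oxidative phosphorylation genes 2 were lower (6.67%, median -0.11) and in 16 smooth muscle genes 2 were lower (12.5%, median -0.23). Over all genes tested 3.5% were higher and 5.02% lower, the latter near the oxidative phosphorylation share. With 1 array left out, the endothelial count ran from 1 to 3 and the cell cycle count from 1 to 6, which was reached without 0.1 Se replicate 2. The oxidative phosphorylation count was 7 without 0 Se replicate 1 and 0 without 0 Se replicate 2 or 3, and the smooth muscle count was 7 without 0.1 Se replicate 1 and 0 without 0 Se replicate 2.

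Outside the lists, the genes with the largest differences at an unadjusted p under 0.01 were as follows. Gm4951, a predicted GTPase of the interferon-inducible family, read 9.02, 7.64 and 7.36 on the 0 Se arrays and 9.71, 9.78 and 9.08 on the 0.1 Se arrays, a difference of 1.52 ± 0.37 (adjusted p = 0.27), with the diets apart. Ms4a6b and Ms4a6d, membrane proteins of leukocytes, differed by 1.08 ± 0.19 and 1.06 ± 0.21 with arrays apart, and a brighter probe set of Ms4a6b by 0.78. Fabp1, a fatty acid carrier, differed by 1.44 ± 0.39 on a probe set with 1 of the 0.1 Se arrays blank, and by 0.26 on its brighter probe set. The most negative differences, none of which passed, included those of the muscle genes Ckmt2 (-1.69 ± 0.41), Cox6a2 (-1.45 ± 0.25) and Smpx (-1.32 ± 0.39), and a brighter probe set of Cox6a2 differed by -0.47. On the named probe sets each of these 3 was blank on 0 Se replicate 1, the array on which the cardiac list was lowest. AU040972 differed by -1.32 ± 0.42 with the diets apart, and Cdhr4 and Pigr are given above.

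Of the 29409 probe sets of the table, few were listed on the 3 arrays of 1 diet and blank on the 3 of the other. There were 52 in 0.1 Se alone and 68 in 0 Se alone, which allows no fold change. Many of these values lay near the lowest value of the table, among them those of Fasl, Dnaic1 and Osmr below. A blank there can stand for a small difference. In 0.1 Se alone the named genes with the highest means were Zbp1, a sensor of nucleic acids that interferons induce, at 8.40, 8.01 and 7.56, Nono at 8.01, 7.91 and 7.69, and Ido1, the interferon-γ induced enzyme that breaks down tryptophan, at 7.97, 8.04 and 6.89. Igsf6 and Riok1 came next with means of 7.53 and 7.45. The guanylate-binding protein Gbp2b, at 7.99, 7.48 and 6.79, and the death ligand Fasl of cytotoxic cells, with a mean of 7.09, were also listed in 0.1 Se alone. In 0 Se alone the highest were Dusp8 (mean 9.00), Phldb1 (8.79), Rarg (8.59), the airway mucin Muc5b at 7.96, 8.47 and 8.74, and Ogfod2 (8.31). The dynein gene Dnah11, at 7.96, 7.95 and 7.81, Dnaic1, with a mean of 7.06, and the secreted airway protein Bpifb1, with a mean of 8.02, were listed in 0 Se alone too. Osmr, of the acute phase and interleukin-6 list, had a probe set listed in 0 Se alone too, with a mean of 6.72. Zbp1, Gbp2b, Fasl, Muc5b, Dnah11 and Dnaic1 belong to the lists above, were not tested and are in none of their counts. Bpifb1 and Osmr are counted in their lists by other probe sets.

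Whether the response to diet differed between lung and liver was tested by an interaction term fitted to all 12 arrays, and 0 of 15112 probe sets passed in limma (0%), with 931 at an unadjusted p under 0.05. The labels do not say whether same-numbered liver and lung arrays came from the same mouse, and this fit treats the 12 arrays as independent. With same-numbered arrays of a diet as a random block, whose consensus correlation was 0.0353, 0 passed as well (994 at an unadjusted p under 0.05). The smallest adjusted p was that of Iigp1, 0.147, with a difference of 1.72 in lung and 0.24 in liver. The differences of the other immunity-related GTPases were 1.73 in lung and 1.11 in liver for Igtp, 1.68 and 0.65 for Irgm2, 1.34 and 0.33 for Irgm1, and 1.31 and 0.59 for Ifi47. They were 1.17 and 0.63 for Gbp2, 1.48 and 0.85 for Gbp7, 0.86 and 0.23 for H2-K1, and -0.66 and -0.14 for Phlda1. Each of these genes had the same sign in both tissues, and none of these differences between tissues passed adjustment. They were picked because they passed in lung, a choice that favours larger values in lung. The 5 selenium-responsive selenoproteins tested in both tissues had a median of 0.324 in lung and 0.815 in liver. Txnrd1 differed by -0.31 in lung and 0.37 in liver. Cd274, Ptgs2 and Fam216b had too few values in liver to be tested there, and of the 33 ciliated genes 1 was tested in both tissues.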

How the data were processed

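Total RNA from the 6 lungs was labelled by a 3′ IVT biotin protocol and hybridized to Affymetrix mouse genome arrays. The authors computed MAS5 signals, scaling each array separately and leaving out absent calls, with affy 1.36.0 in R 2.15.2 per the submitters' processing notes. The deposited values are log2 signals from 6.64 (a signal of 100) to 16.4, beside blank cells. Values were used as deposited. Of 29409 probe sets (58 controls left out), 24504 stood for a single gene in the platform annotation updated through RefSeq, 660 for several and 4245 for none.

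Groups followed the array titles. A probe set was tested with at least 2 values per diet, and 1593 of 21655 had fewer than 6 values, with blanks left missing. The diets were compared by limma 3.58.1 (R 4.3.3), on tables read through the data.table package (1.17.8), using lmFit and eBayes (trend fitted), with Benjamini-Hochberg adjustment over all tested probe sets and a threshold of 0.05. Lung and liver were compared by an interaction over 12 arrays. No depth applies to arrays, and their number limits the precision. The code was checked on simulated data.

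In the lists each gene was read by its brightest probe set, so a gene named by another probe set can differ. Members and lists were chosen with earlier results of these data known. Lists are described by counts and medians only. Named genes were all calls, every selenoprotein, up to 6 members per list by smallest p, up to 6 genes per direction outside them by size at an unadjusted p under 0.01, and up to 5 per direction listed in 1 diet alone. Lrrc23 was added for its promoter. Gbp2b, Fasl, Bpifb1, Dnah11, Dnaic1, Foxj1, Tnni3, Pln and Osmr were added as members of lists, and Tgtp1, Serpina3g and Areg from the study's table. Alternatives covered the filter, scaling, a pseudocount of 32, the eBayes settings, array weights, a replicate block, 12 arrays in a single fit, the methods' t-test and leaving out each array. List counts with arrays left out, without the genes of the study's own list or without genes of another list were added after seeing the data. So was the interaction with same-numbered arrays as a random block (duplicateCorrelation).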

Additional observations from a re-analysis of the deposited data

How the results depend on the processing

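Of the 12 called genes, none changed direction under any alternative. The count of 20 probe sets passing was the same with values on all 6 arrays, with median centring and with log2 of the signal plus 32. With the 12 arrays in a single fit it was 19, of which 13 were among the 20, and Gbp2, Ifi47, Phlda1 and Ptgs2 were lost. It was 4 with blanks set to the lowest value and no filter, none of them among the 20, 8 with a filter at the median signal, 10 after quantile normalization, 13 with a robust trend and 54 with array weights. limma called 0 without a trend, with 1672 at an unadjusted p under 0.05. The methods' t-test gave 1412 at an unadjusted p under 0.05, 179 of them past 1.5-fold, and 0 after adjustment. Leaving out 1 array gave 0 to 75, with 0 lower calls without 0.1 Se replicate 3 and 47 without 0.1 Se replicate 1. The cause was not tested.

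With the replicate number as a block 54 probe sets passed, 19 of them among the 20, and of the called genes Ptgs2 was lost (adjusted p = 0.0511). Same-numbered arrays did not deviate together (r = 0.0545, -0.151 and -0.0092), so the numbers were not taken as a pairing.

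The selenoproteins Selenop, Selenof and Selenot, all near 0, changed sign. Selenop was 0.0315 after quantile normalization, 0.0204 with array weights and -0.20 to 0.17 when 1 array was left out. Selenof ran from -0.109 to 0.011 and Selenot from -0.0264 to 0.121 when 1 array was left out, and Fabp1, on its brighter probe set, from -0.581 to 1.25. The interaction count was 0 also for the 13376 probe sets with values on all 12 arrays and with same-numbered liver and lung arrays as a random block, where the smallest adjusted p was 0.12. With 3 arrays per diet and blanks in place of low signals, differences of low genes are the least certain.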
